A study of Mus musculus with 12 samples.

Results

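The 48 genes described here are components of Wnt signaling, comprising 10 ligands, 11 Frizzled or LRP receptors, 3 alternative receptors, 7 secreted inhibitors, 5 R-spondins or Lgr receptors, 8 intracellular transducers and 4 nuclear factors or feedback targets. They were chosen by name, with earlier results of these data known, so their shares beside those of all genes are descriptions. All 48 passed the filter of more than 20 counts over the 12 libraries of the series, as did 22592 genes in all. Poly(A) RNA from the hippocampus was sequenced from 12 mice, 3 in each of 4 groups, and each library carries an animal number. WT-Veh (RH2, RH5 and RH15) and WT-Nut3 (RH1, RH9 and RH14) were wild-type mice given vehicle or Nutlin-3, an inhibitor of MDM2. KO-Veh (RH7, RH10 and RH16) and KO-Nut3 (RH6, RH8 and RH13) were *Fmr1* KO mice, a model of fragile X syndrome, given the same 2 treatments. Injections were made at 2 months of age and the tissue was collected at 6 months in all groups. The mice were on a C57B/L6 background according to the methods, and the knockout is present in every cell, not driven by a Cre line. The study writes the genotypes of its treated mice as those of males, and does not give the sex of the animals behind these libraries separately. Reads counted on genes ranged from 17150820 in WT-Veh RH2 to 20040482 in WT-Nut3 RH9. Levels are given as CPM, counts scaled to library size after TMM normalization, or as RPKM, the same level per kilobase of exon, when genes are compared with each other.

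Wnt ligands are secreted lipid-modified proteins that bind Frizzled receptors together with the co-receptors LRP5 and LRP6. Without a ligand, a complex of Axin, APC and GSK3 marks beta-catenin for degradation, and with it Dishevelled proteins inactivate that complex, so that beta-catenin enters the nucleus and acts with TCF and LEF factors on target genes, several of which feed back on the pathway. In the adult dentate gyrus the pathway is known for its part in the proliferation and neuronal differentiation of neural stem cells. Secreted Frizzled-related proteins and Wnt inhibitory factor bind the ligands, some Dickkopf proteins, such as that of *Dkk2*, act at LRP, and R-spondins with Lgr receptors strengthen the signal. Wnt genes are also expressed in the choroid plexus, the meninges and the thalamus, which lie next to the hippocampus.

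Promoter sequences from RefSeq (GRCm38.p6) were found for 32 of the 48 genes, in 36 windows. Those without an entry were *Sfrp1*, *Dkk3*, *Wnt5a*, *Wnt7b*, *Wnt10a*, *Fzd2*, *Fzd3*, *Fzd6*, *Fzd8*, *Lrp5*, *Lrp6*, *Rspo2*, *Rspo3*, *Lgr5*, *Apc* and *Axin1*. The 250 bases before the gene start are shown for *Sfrp5*, *Fzd4* and *Fzd7*, because both receptors were high in the same 4 libraries in the results that follow, and the inhibitor in 3 of them. The windows follow the RefSeq gene starts, which lie 277 bases from the GENCODE start used for the positions in the text for *Fzd7*, 11 bases for *Fzd4* and 0 for *Sfrp5*. They are written 5′ to 3′ on the strand of the gene, with CpG dinucleotides in capitals.
Sfrp5, chr19:42202253-42202502, minus strand: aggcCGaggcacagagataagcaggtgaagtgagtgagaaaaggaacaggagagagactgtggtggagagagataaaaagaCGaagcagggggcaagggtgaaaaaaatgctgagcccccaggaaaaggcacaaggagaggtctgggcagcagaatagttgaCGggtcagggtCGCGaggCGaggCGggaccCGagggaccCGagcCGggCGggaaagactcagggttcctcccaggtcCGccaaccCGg
Fzd4, chr7:89404116-89404365, plus strand: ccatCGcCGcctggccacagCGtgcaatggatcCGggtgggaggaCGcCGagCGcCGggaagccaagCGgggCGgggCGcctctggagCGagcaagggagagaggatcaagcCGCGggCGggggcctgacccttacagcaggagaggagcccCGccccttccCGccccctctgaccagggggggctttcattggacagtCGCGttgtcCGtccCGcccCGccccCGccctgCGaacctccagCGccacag
Fzd7, chr1:59481897-59482146, plus strand: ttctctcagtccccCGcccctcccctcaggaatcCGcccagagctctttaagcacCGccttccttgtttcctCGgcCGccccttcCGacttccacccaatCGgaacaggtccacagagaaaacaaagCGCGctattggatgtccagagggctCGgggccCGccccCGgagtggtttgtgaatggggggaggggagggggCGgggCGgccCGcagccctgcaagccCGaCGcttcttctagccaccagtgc

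These windows held 13, 25 and 17 CpG dinucleotides, against a median of 21.5 over the 36 windows and of 6 over all 32851 windows of the table. The G and C content was 59.6% in *Sfrp5*, 72.8% in *Fzd4* and 65.2% in *Fzd7*, against medians of 66.0% and 52.4%. The letters CTTTGAA or CTTTGAT, a short form of the TCF and LEF motif, were searched on both strands in the same 250 bases. They were present in 2 of the 36 windows (5.56%) and in 7.48% of all windows, and in none of the 3 sequences above. The 2 windows were 1 of those of *Wnt5b*, a ligand, at a RefSeq start 94961 bases from its GENCODE start, and that of *Gsk3a*, a kinase of the destruction complex. Their surroundings are given with the motif in capitals, on the strand of the gene, where *Gsk3a* carries it on the opposite strand.
Wnt5b, chr6:119449441-119449467, minus strand: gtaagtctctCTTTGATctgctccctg
Gsk3a, chr7:25237993-25238019, minus strand: gactgtgtttTTCAAAGtgcttccaag

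*Fmr1* (ENSMUSG00000000838) was examined first as a check of the labels. It stood at 79.5, 75.2 and 77.7 CPM in WT-Veh and at 75.1, 73.9 and 78.3 CPM in WT-Nut3, where libraries are given in the order of their animal numbers, here and throughout. In the knockout it stood at 32.7, 32.5 and 37.3 CPM in KO-Veh and at 30.6, 28.5 and 35.7 CPM in KO-Nut3. All 6 KO libraries lay below all 6 WT libraries, with a log2 fold change of -1.18 between KO-Veh and WT-Veh (standard error, SE, 0.0690, edgeR adjusted *P*-value 1.75e-06), as the genotype labels state. *Fmr1* does not check the labels of vehicle and Nutlin-3.

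Some libraries stood apart in marker genes of neighboring tissue, and lists of 10 markers were summed in each library. The choroid plexus list, led by *Ttr* (transthyretin, the main secreted protein of that epithelium), summed to 30.4 to 55.2 CPM in 8 libraries. It reached 4741 CPM in WT-Nut3 RH9 and 3534, 378 and 5070 CPM in the KO-Nut3 libraries, with *Ttr* at 4213 CPM in WT-Nut3 RH9 and at 3090, 313 and 4518 CPM in KO-Nut3. Treatment and choroid plexus transcripts therefore cannot be told apart between KO-Nut3 and KO-Veh, since all 3 libraries of one group and none of the other had them at a high level. Only *Kcnj13* of this list had libraries without a count.

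The list of fibroblasts of meninges and stroma, in which *Dcn* was the most abundant gene, was highest in WT-Veh RH5 (201 CPM) and KO-Nut3 RH8 (261 CPM) and lay between 57.4 and 144 CPM in the other libraries. It was 144, 261 and 127 CPM in KO-Nut3 and 95, 98.8 and 102 CPM in KO-Veh without overlap. The lack of overlap in the sums rested on *Slc13a4*, at 536 counts in KO-Nut3 RH13 and 67 to 141 in KO-Veh. *Slc13a4* was also high in WT-Nut3 RH9 (525 counts) and WT-Veh RH5 (477 counts). Gene by gene, 6 of the 10 did not overlap, all higher in KO-Nut3. Treatment and these markers therefore cannot be told apart in that comparison either. *Dcn* itself did not single out the 2 libraries with the highest sums, since 58.2 CPM in WT-Veh RH5 and 56.5 CPM in KO-Nut3 RH8 were matched by 56.8 CPM in KO-Veh RH10. The thalamus list, led by *Ntng1*, summed to 330 CPM in KO-Nut3 RH6 and to 127 to 197 CPM in the others. *Ntng1* did not stand out in that library, at 51.7 CPM, whereas *Slc17a6*, the vesicular glutamate transporter of thalamic neurons, named here after its values were seen, reached 112.5 CPM in KO-Nut3 RH6 and 8.42 to 22.2 CPM in the other 11. *Tnnt1*, *Zic1*, *Rgs16* and *Vipr2* were also highest in KO-Nut3 RH6, while *Prkcd*, *Plekhg1*, *Synpo2* and *Ramp3* were not. *Zic1*, with 1384 counts there, was also high in KO-Veh RH16 (897 counts) and KO-Nut3 RH8 (852 counts). In KO-Nut3 RH6 the markers of CA pyramidal neurons, led by *Mpped1*, had their lowest sum, 739 CPM against 966 to 1164 CPM. The sum for dentate granule neurons, led by *Rfx3*, was also lowest there, at 639 CPM against 686 to 901 CPM, and the endothelium list, led by *Flt1*, summed to 299 to 384 CPM. All markers of these lists were detected in every library apart from *Kcnj13*, and in bulk tissue fewer cells of a type and less RNA per cell cannot be told apart.

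The levels of the members differed widely per exon length, within most roles as well as between them. *Dkk3*, a Dickkopf family member, was the highest at 114.7 ± 12.5 RPKM (SD, n = 12). The lowest mean was that of *Dkk2*, an LRP ligand of the same family, at 0.166 ± 0.0974 RPKM. Its order against *Lgr5*, *Ror2* and *Fzd5*, at 0.221, 0.258 and 0.262 RPKM, could not be told within their SDs. Next after *Dkk3* were transducers, with *Ctnnb1* (beta-catenin) at 64.6 ± 1.95 RPKM, *Gsk3a* at 38.2 ± 2.53 RPKM and *Apc*, the scaffold of the destruction complex, at 25.5 ± 1.12 RPKM. *Gsk3b* (23.6 ± 0.579 RPKM) and *Dvl1*, a Dishevelled protein (22.2 ± 0.623 RPKM), followed *Apc*. The lowest transducer was *Dvl2*, at 5.13 ± 0.371 RPKM.

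Among the ligands, *Wnt7b* was the highest at 9.90 ± 1.11 RPKM, ahead of *Wnt7a* at 5.13 ± 0.453 RPKM, *Wnt4* at 3.56 ± 0.814 RPKM and *Wnt9a* at 2.72 ± 0.529 RPKM. The order of *Wnt10a*, *Wnt2b* and *Wnt5b*, at 1.20, 1.08 and 1.01 RPKM, could not be told within SDs of 0.316, 0.205 and 0.204 RPKM. *Fzd3* (8.83 ± 0.544 RPKM) led the receptors, followed by *Lrp6* (6.21 ± 0.567 RPKM), and *Fzd5* was the lowest at 0.262 ± 0.0869 RPKM. *Fzd1*, *Fzd7*, *Fzd4* and *Fzd2* lay between 3.48 and 3.09 RPKM with SDs of 0.698 to 1.07 RPKM, so their order is not resolved. *Ryk*, a receptor of the non-canonical branch, stood at 7.88 ± 0.626 RPKM and *Ror2*, a receptor kinase for WNT5A, at 0.258 ± 0.114 RPKM. *Lgr4* (7.35 ± 0.356 RPKM), an R-spondin receptor, was far above *Lgr5* (0.221 ± 0.153 RPKM), a marker of stem cells in several epithelia, and *Axin2*, a direct target and inhibitor of the pathway, led its role at 5.31 ± 0.715 RPKM.

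**Figure D1:**
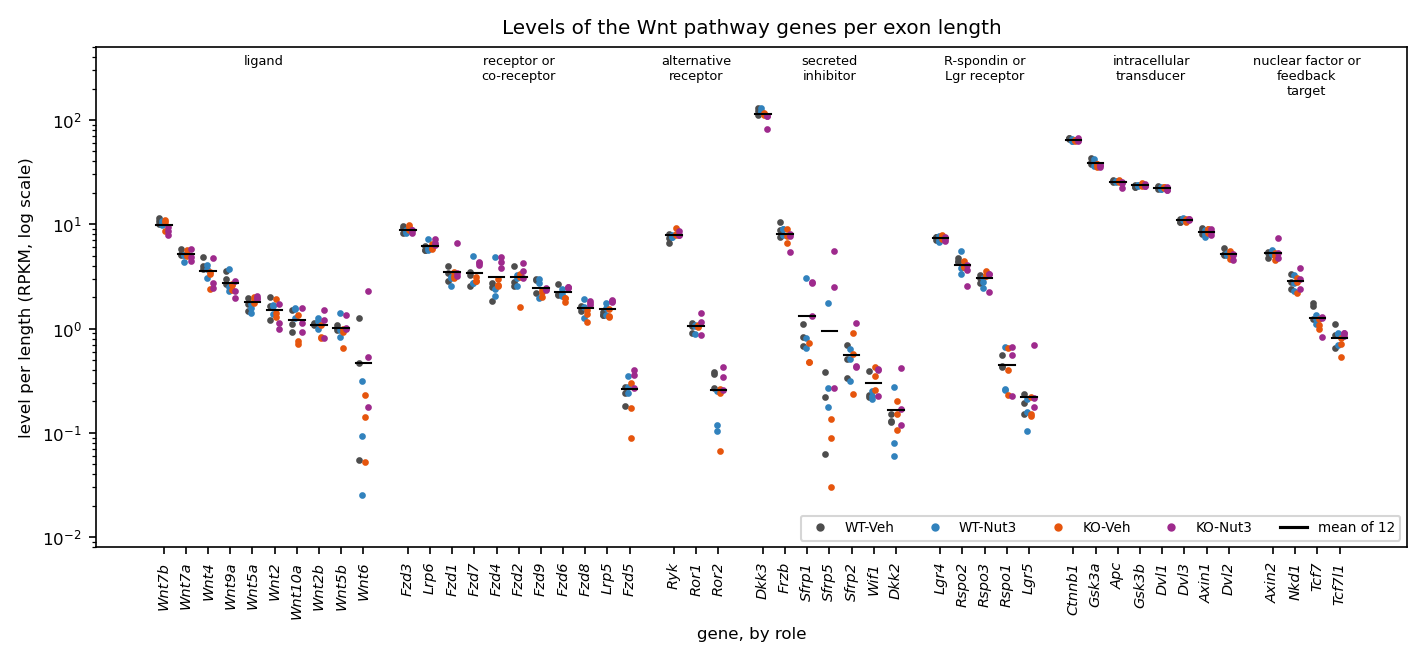
Level per exon length (RPKM, log axis) of the 48 Wnt pathway genes by role, with 1 point for each of the 12 libraries colored by group and a line at the mean. *Dkk3* is at the top and the transducers have tight points, while *Wnt6*, *Sfrp5*, *Sfrp1* and *Ror2* scatter widely.

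The spread over the 12 libraries was smallest, by role, for the 8 transducers among the 48 members. The coefficient of variation of CPM was 2.41% to 7.30% for the 8 transducers, with *Gsk3b* the steadiest. This coefficient was 13.4% to 20.5% for the nuclear factors or feedback targets and ranged widely in the inhibitors, from 10.9% to 171%. Its median over the 48 members was 16.3%. It stayed under 10% in 13 members, the 8 transducers with *Wnt7a*, *Fzd3*, *Lrp6*, *Ryk* and *Lgr4*. It exceeded 30% in 10 members, namely *Sfrp5* (171%), *Wnt6* (142%), *Sfrp1* (74.3%), *Lgr5* (69.3%), *Dkk2* (58.5%), *Sfrp2* (46.0%), *Ror2* (44.0%), *Rspo1* (38.6%), *Fzd4* (34.1%) and *Fzd5* (33.0%). Most of these had few reads, with 1 to 188 counts per library for *Sfrp5* and 1 to 88 for *Wnt6*, but *Sfrp1* (37 to 269 counts) and *Fzd4* (207 to 659 counts) did not.

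KO-Nut3 RH6 held the highest level of 13 of the 48 members, WT-Veh RH2 of 7 and WT-Nut3 RH14 of none. Over all genes tested, 15.3% were highest in KO-Nut3 RH6, 11.5% in WT-Veh RH2 and 6.02% in WT-Nut3 RH14. The 13 members in KO-Nut3 RH6 were *Wnt2b*, *Wnt5a*, *Wnt10a*, *Fzd1*, *Fzd2*, *Fzd4*, *Fzd5*, *Sfrp2*, *Sfrp5*, *Dkk2*, *Lgr5*, *Axin2* and *Nkd1*, none of which is a transducer. In WT-Veh RH2 they were *Frzb*, *Dkk3* and 5 of the 8 transducers.

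**Figure D2:**
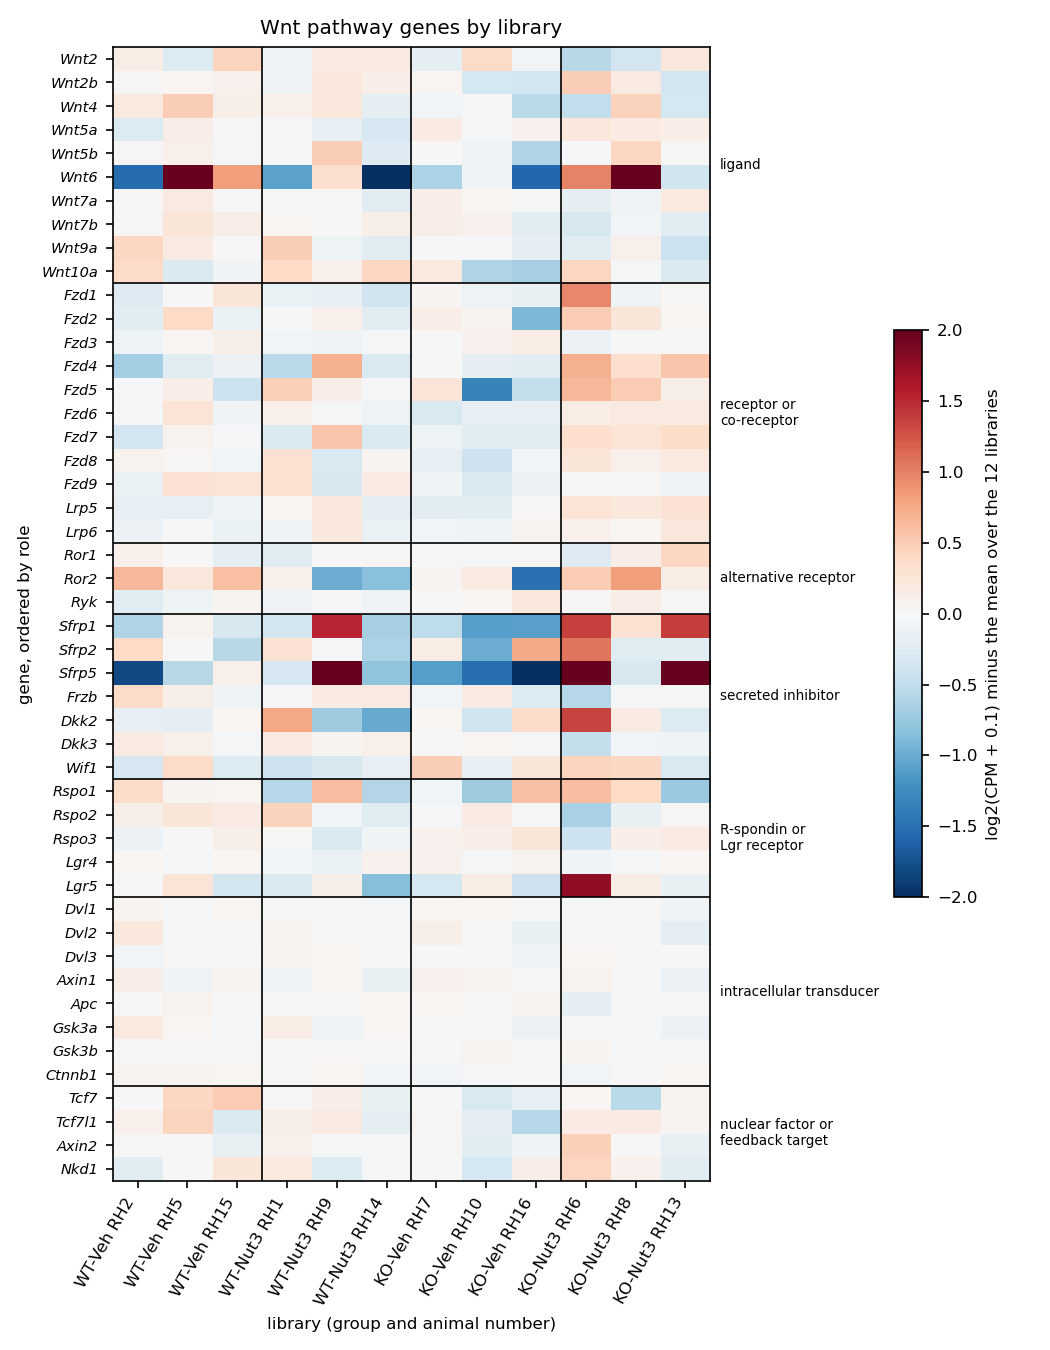
Each row is 1 of the 48 genes, ordered by role, and each column 1 of the 12 libraries, with color for log2(CPM + 0.1) minus the mean of the gene over the 12 libraries, with the color scale ending at -2 and 2. The transducers are nearly white throughout, *Sfrp1* and *Sfrp5* are red in WT-Nut3 RH9, KO-Nut3 RH6 and KO-Nut3 RH13, and *Wnt6* is red in WT-Veh RH5 and KO-Nut3 RH8.

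The question of the comparison of KO-Nut3 with KO-Veh is what Nutlin-3 left behind in the knockout hippocampus. One secreted inhibitor, *Sfrp1*, rose, and 1 of the 48 members (2.08%) thus passed the threshold of an adjusted *P*-value under 0.05 in edgeR, against 0.199% of all genes tested. No member fell. The fitted log2 fold change was positive for 31 members and negative for 17, with a median of 0.12, against a median of 0.00 and a positive sign in 50.8% over all genes tested. At an unadjusted *P*-value under 0.05 there were 8 members (16.7%), all higher in KO-Nut3, against 7.60% of all genes, namely *Sfrp1*, *Sfrp5*, *Wnt6*, *Fzd4*, *Fzd6*, *Fzd7*, *Fzd8* and *Lrp5*. The groups did not overlap in 9 members that were higher in KO-Nut3 (18.8%, against 7.85% of all genes) and in 2 that were lower (4.17%, against 5.44%).

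*Sfrp1* (ENSMUSG00000031548, chromosome 8, 23411502 to 23449632 on the plus strand of GRCm38) encodes a secreted Frizzled-related protein that binds Wnt ligands. It stood at 2.98, 4.83 and 3.66 CPM in WT-Veh and at 3.55, 13.4 and 2.86 CPM in WT-Nut3. In the knockout it stood at 3.20, 2.09 and 2.11 CPM in KO-Veh and at 12, 5.73 and 12.2 CPM in KO-Nut3. All KO-Nut3 libraries lay above all KO-Veh and all WT-Veh libraries, but the highest level of all was in WT-Nut3 RH9. The 4 highest libraries were the 4 with the highest *Ttr*, and KO-Nut3 RH8, the lowest of them in *Ttr*, was also the lowest of them in *Sfrp1*. The log2 fold change between KO-Nut3 and KO-Veh was 2.01 (SE 0.306, edgeR adjusted *P*-value 0.0414). It kept its side of the threshold without KO-Nut3 RH6 (adjusted *P*-value 0.0289) and without KO-Nut3 RH8 (0.000593), and lost it without KO-Veh RH7 (0.160), RH10 (0.451) or RH16 (0.243) and without KO-Nut3 RH13 (0.0872). The call was also lost with limma-voom, with a stricter filter on low counts, with all 12 libraries in one fit, with robust dispersion and with a term for animal number, while DESeq2 made it. The part of choroid plexus tissue in this result was not tested.

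*Sfrp5* (ENSMUSG00000018822, chromosome 19, 42197971 to 42202252 on the minus strand), a close relative of *Sfrp1* with the same function, had fewer reads. It stood at 0.119, 0.420 and 0.721 CPM in WT-Veh and at 0.507, 3.33 and 0.336 CPM in WT-Nut3. In the knockout it stood at 0.258, 0.169 and 0.0569 CPM in KO-Veh, which were 5, 3 and 1 counts, and at 10.4, 0.515 and 4.72 CPM in KO-Nut3, which were 188, 9 and 86 counts. KO-Nut3 RH8 lay within the range of WT-Veh, and the libraries above 1 CPM were KO-Nut3 RH6, KO-Nut3 RH13 and WT-Nut3 RH9. The log2 fold change of 4.93 (SE 1.02) did not pass in edgeR, with an adjusted *P*-value of 0.128.

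Among the receptors, 10 of 11 had a positive log2 fold change in KO-Nut3 (50.8% of all genes did) and 6 of 11 (54.5%, against 7.85% of all genes) did not overlap with KO-Veh in that direction, and none passed the threshold. *Fzd4* (chromosome 7, 89404355 to 89413134), which encodes the Frizzled receptor for Norrin in blood vessels and also binds Wnt ligands, stood at 12.4, 16.9 and 18.4 CPM in WT-Veh and at 13.8, 32.7 and 16.1 CPM in WT-Nut3. It stood at 19.9, 17.6 and 17 CPM in KO-Veh and at 32.8, 25.4 and 29.3 CPM in KO-Nut3. Again the 4 highest libraries were those with high *Ttr*, and the difference between KO-Nut3 and KO-Veh came to a log2 fold change of 0.68 (SE 0.113, edgeR adjusted *P*-value 0.0563). *Fzd7* (chromosome 1, 59482424 to 59486955), a receptor of the canonical branch, followed the same libraries. It stood at 11.6, 15.9 and 14.8 CPM in WT-Veh, at 12.4, 22.4 and 12.4 CPM in WT-Nut3, at 14.1, 13 and 12.8 CPM in KO-Veh and at 19.2, 18.4 and 19.7 CPM in KO-Nut3. Its log2 fold change was 0.52 (SE 0.0966, edgeR adjusted *P*-value 0.0857), and its highest library was WT-Nut3 RH9.

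The other receptors without overlap differed less. *Fzd8* had a log2 fold change of 0.40 (SE 0.138), *Lrp5*, a co-receptor, of 0.39 (0.107), and *Fzd6*, a receptor of the planar polarity branch, of 0.37 (0.115), with adjusted *P*-values of 0.487, 0.297 and 0.392 in edgeR. *Fzd6* stood at 10.3, 12.9 and 10.1 CPM in WT-Veh and at 11.4, 10.4 and 9.87 CPM in WT-Nut3. It stood at 8.57, 9.52 and 9.51 CPM in KO-Veh and at 11.8, 12 and 12 CPM in KO-Nut3, so KO-Nut3 lay within the range of WT-Veh. *Fzd9* was higher by only 0.13 (SE 0.157), and *Fzd3*, the most abundant receptor, was lower in all KO-Nut3 libraries by a log2 fold change of -0.13 (0.0634). *Fzd3* stood at 104.7, 116.5 and 122.2 CPM in WT-Veh and at 109.1, 104.9 and 111.5 CPM in WT-Nut3. It stood at 113.6, 120.0 and 125.6 CPM in KO-Veh and at 104.3, 112.5 and 111.7 CPM in KO-Nut3, where RH6 was the lowest of the 12 libraries and the other 2 lay within the range of the WT groups.

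*Fzd1* and *Fzd2* had log2 fold changes of 0.44 (SEs 0.241 and 0.243), with overlapping groups. For *Fzd1* this rested on 27.6 CPM in KO-Nut3 RH6, since the other 11 libraries lay between 10.8 and 16.8 CPM, and it was 0.04 without that library. For *Fzd2* it was 0.18 without KO-Veh RH16, and that of *Fzd9* was 0.07 without KO-Veh RH10. Endothelial markers were looked at beside *Fzd4*. Of that list, 0 of 10 passed the threshold in edgeR and 5 (against 7.85% of all genes) did not overlap, all higher in KO-Nut3, and its sum was 360, 377 and 384 CPM in KO-Nut3 against 319, 299 and 342 CPM in KO-Veh. Of the choroid plexus list, 4 of 10 passed (against 0.199% of all genes), all higher (*Ttr*, *Folr1*, *Slc4a5* and *Tmem72*), and *Ttr* had a log2 fold change of 8.05 (SE 0.993, edgeR adjusted *P*-value 0.0131). Of the fibroblast list 9 of 10 had an unadjusted *P*-value under 0.05 (against 7.60% of all genes), 6 did not overlap, all higher in KO-Nut3, and the median log2 fold change was 1.37. From this list 1 of 10 passed, *Slc13a4* (log2 fold change 2.74, SE 0.213, edgeR adjusted *P*-value 0.00144). *Slc13a4* was high in all 4 libraries with high *Ttr*, as the choroid plexus list was, and in WT-Veh RH5. Of the thalamus, dentate granule and CA pyramidal lists 0 of 10 each passed.

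**Figure D3:**
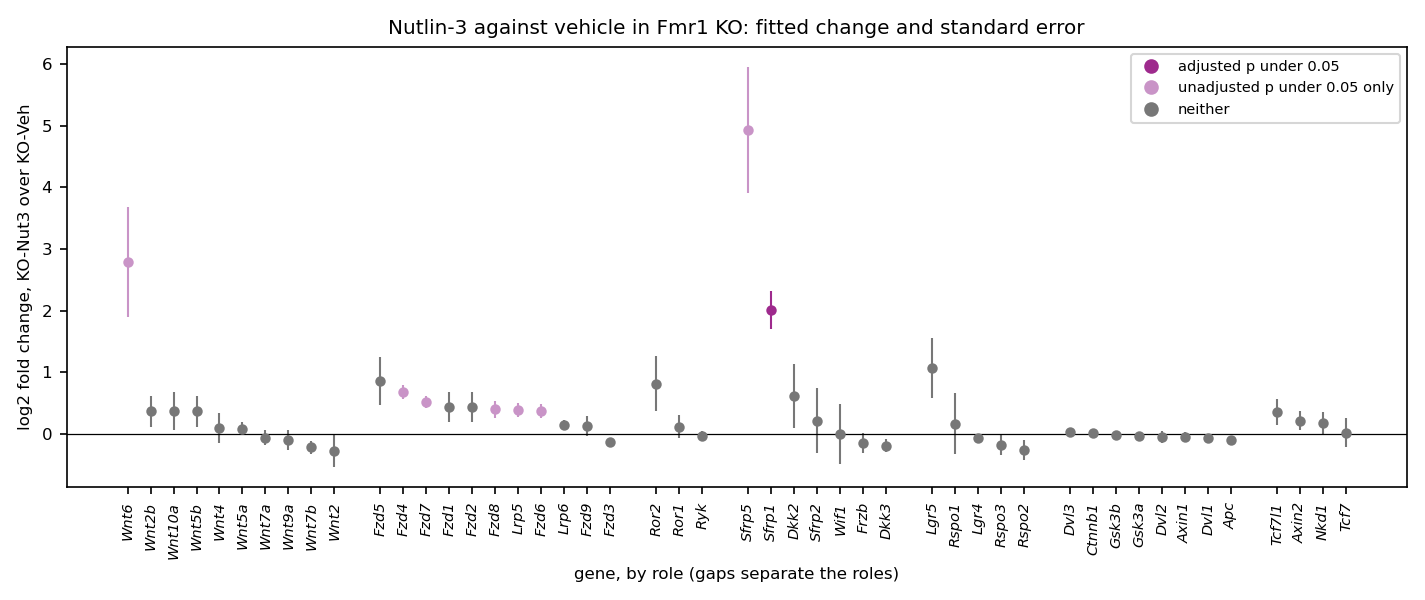
Fitted log2 fold change of KO-Nut3 over KO-Veh (edgeR) with its standard error (SE) for each of the 48 members, grouped by role and sorted within it, with color for the test passed. *Sfrp5*, *Wnt6* and *Sfrp1* lie far above 0 with long bars for the first 2, the receptors lie mostly above 0, and the transducers lie within 0.10 of 0.

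*Wnt6* (chromosome 1, 74771892 to 74785322) encodes a ligand known in epithelia and mesenchyme. It stood at 0.119, 2.73 and 1.03 CPM in WT-Veh and at 0.203, 0.695 and 0.0561 CPM in WT-Nut3. In the knockout it stood at 0.310, 0.507 and 0.114 CPM in KO-Veh and at 1.16, 5.04 and 0.384 CPM in KO-Nut3. The groups overlapped in every comparison with KO-Veh, and the 2 highest libraries, KO-Nut3 RH8 and WT-Veh RH5, came from different groups. They were also the highest in the summed fibroblast markers and in *Aldh1a2*, a retinoic acid synthesizing enzyme of the meninges, named after its values were seen, which stood at 14.9 CPM in WT-Veh RH5, 21.6 CPM in KO-Nut3 RH8 and 1.40 to 10.1 CPM elsewhere. The log2 fold change was 2.79 (SE 0.884, edgeR adjusted *P*-value 0.407) and 1.29 without KO-Nut3 RH8. The adjacent ligand gene *Wnt10a* (chromosome 1, 74791516 to 74804179) did not follow it, at 2.31 CPM in WT-Veh RH5 and 2.81 CPM in KO-Nut3 RH8, within a range of 1.77 to 3.88 CPM. The part of fibroblasts in the level of *Wnt6* was not tested.

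The other 8 ligands besides *Wnt6* and *Wnt10a* had log2 fold changes between -0.27 and 0.37 in this comparison, and 0 passed the threshold. The most abundant, *Wnt7b*, stood at 49.1, 56.9 and 53.1 CPM in WT-Veh, 49.6, 48.5 and 52.5 CPM in WT-Nut3, 53.2, 51.2 and 41.7 CPM in KO-Veh and 38.6, 46.3 and 41.9 CPM in KO-Nut3. The KO-Nut3 libraries lay below all WT libraries but overlapped with KO-Veh. *Wnt7b* shares 6.61% of its exonic bases with an antisense gene, and the counts do not separate strands.

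*Dkk3* was lower in all KO-Nut3 libraries than in all KO-Veh libraries. It stood at 434.3, 410.6 and 375.7 CPM in WT-Veh, 433.2, 397.3 and 413.1 CPM in WT-Nut3, 380.6, 392.5 and 377.4 CPM in KO-Veh and 274.6, 370.1 and 365.1 CPM in KO-Nut3. KO-Nut3 RH6, the library with the lowest sum of CA pyramidal markers, was far below the rest. The log2 fold change was -0.19 (SE 0.104, edgeR adjusted *P*-value 0.732), and -0.06 without this library. The other inhibitors, *Frzb*, *Sfrp2*, *Dkk2* and *Wif1*, overlapped between the groups.

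Among R-spondins and their receptors, *Lgr5* (chromosome 10, 115450311 to 115587780) stood out in 1 library. It stood at 1.97, 2.42 and 1.54 CPM in WT-Veh, 1.62, 2.19 and 1.07 CPM in WT-Nut3, 1.55, 2.25 and 1.48 CPM in KO-Veh and 7.10, 2.23 and 1.81 CPM in KO-Nut3. The log2 fold change of 1.07 (SE 0.485, edgeR adjusted *P*-value 0.664) rested on KO-Nut3 RH6, the library with high *Slc17a6*, and was 0.20 without it. *Rspo2*, an R-spondin, went the other way in that library, at 22.0, 24.2 and 22.8 CPM in WT-Veh, 28, 19.6 and 17.2 CPM in WT-Nut3, 19.8, 22.8 and 19.8 CPM in KO-Veh and 13, 18.4 and 20.6 CPM in KO-Nut3. *Lgr4* was level throughout, at 44.6, 41.9 and 44.5 CPM in WT-Veh, 41.5, 39.6 and 45.7 CPM in WT-Nut3, 46.0, 42.1 and 45.6 CPM in KO-Veh and 41.0, 42.7 and 44.2 CPM in KO-Nut3. Of the alternative receptors, *Ryk* stood at 30.1, 33.3 and 36.9 CPM in WT-Veh, 33.9, 35.8 and 33.9 CPM in WT-Nut3, 35.7, 36.4 and 41.3 CPM in KO-Veh and 36.1, 39.1 and 36.1 CPM in KO-Nut3, with overlapping groups.

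**Figure D4:**
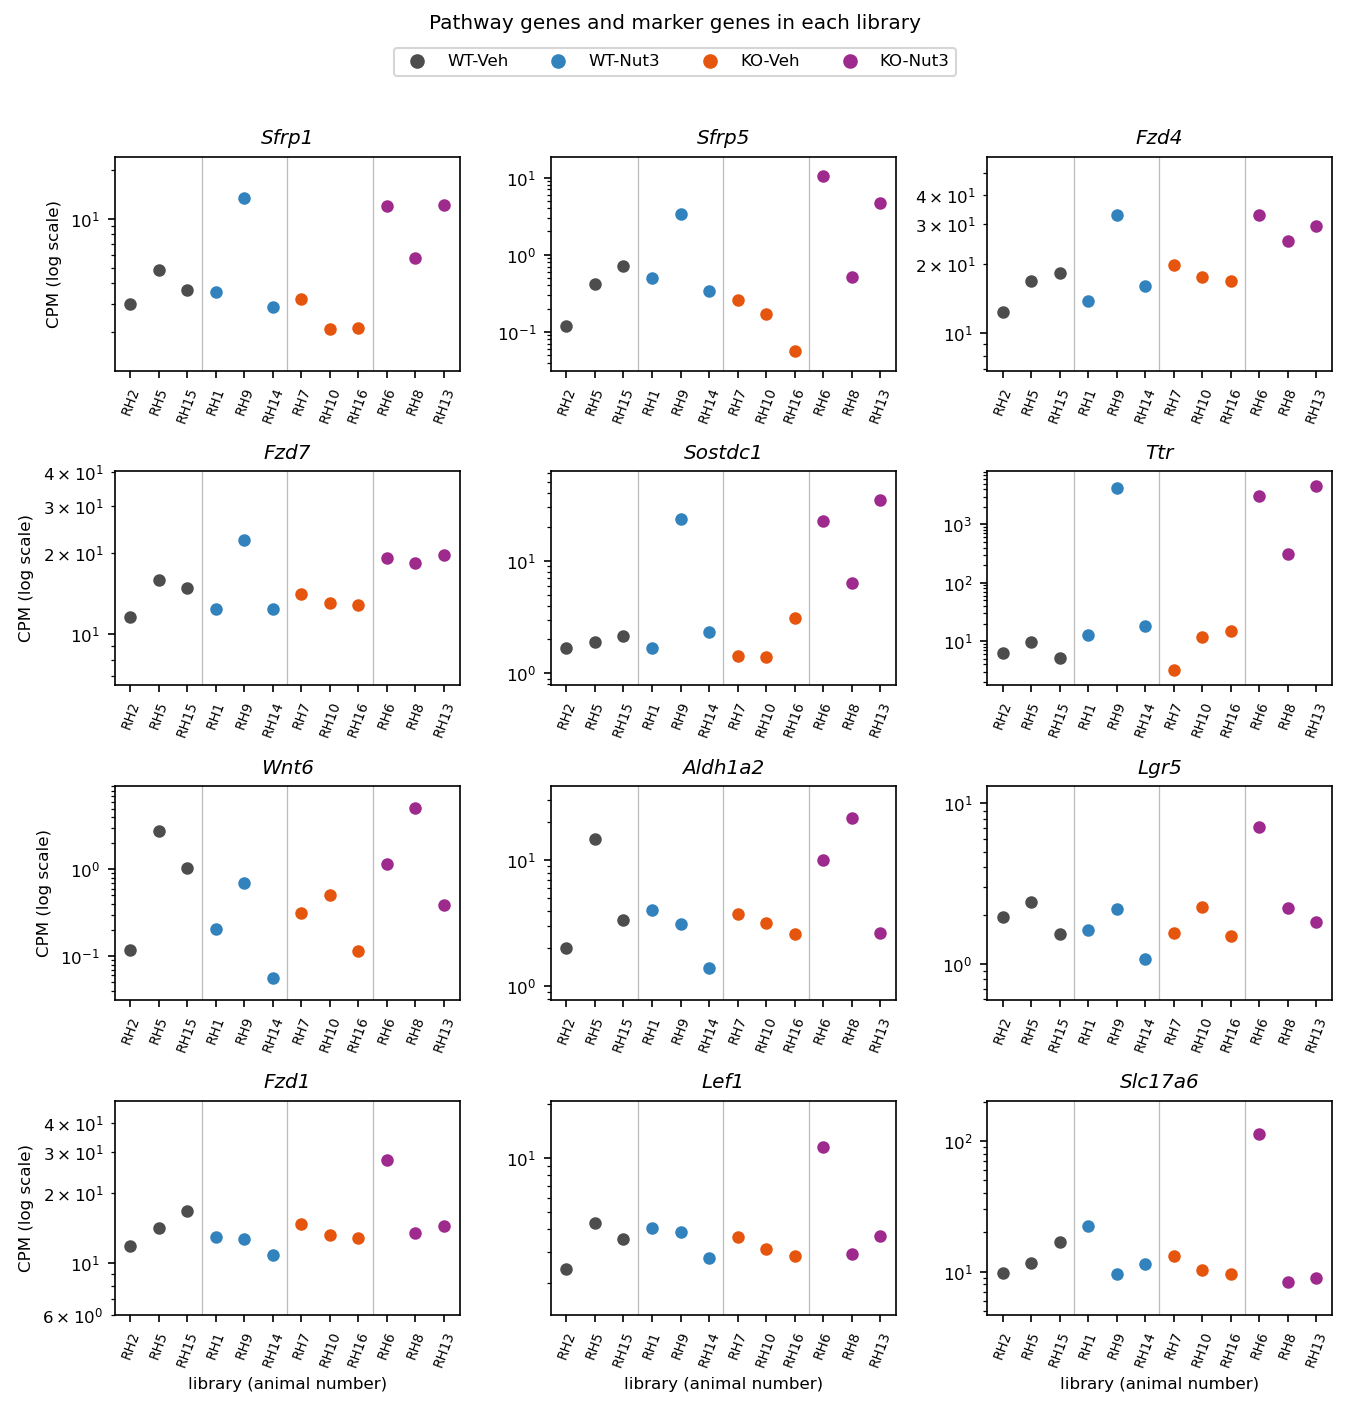
CPM (log axis) of pathway genes and of marker genes in each of the 12 libraries, named by animal number and colored by group. *Sfrp1*, *Fzd4*, *Fzd7* and *Sostdc1* are high in the 4 libraries where *Ttr* is high, *Sfrp5* in 3 of them, *Wnt6* where *Aldh1a2* is high, and *Lgr5*, *Fzd1* and *Lef1* in KO-Nut3 RH6, where *Slc17a6* is high.

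The 8 transducers among the members had log2 fold changes between -0.10 and 0.04 between KO-Nut3 and KO-Veh. Of these 0 of 8 passed the threshold, against 0.199% of all genes. Also 0 of 8 lacked overlap, against 7.85% of all genes higher and 5.44% lower. The 15 other pathway genes of this role ranged from -0.20 to 0.67, with *Nxn* the highest. *Ctnnb1* stood at 349.3, 347.5 and 344.2 CPM in WT-Veh, 327.0, 343.4 and 324.1 CPM in WT-Nut3, 323.0, 329.8 and 335.5 CPM in KO-Veh and 322.8, 334.3 and 345.9 CPM in KO-Nut3. All WT-Veh libraries lay above all WT-Nut3 and KO-Veh libraries, by a small margin. *Apc* stood at 415.7, 430.6 and 411.6 CPM in WT-Veh, 414.7, 407.4 and 421.1 CPM in WT-Nut3, 420.1, 409.8 and 424.2 CPM in KO-Veh and 358.9, 412.0 and 399.4 CPM in KO-Nut3, a log2 fold change of -0.10 (SE 0.0679) that was -0.04 without KO-Nut3 RH6. *Gsk3a* stood at 126.1, 113.6 and 109.1 CPM in WT-Veh, 122.0, 104.2 and 113.6 CPM in WT-Nut3, 110.5, 110.6 and 102.0 CPM in KO-Veh and 108.1, 107.3 and 102.3 CPM in KO-Nut3, and all groups overlapped except KO-Nut3 and WT-Veh. Antisense or small genes cover 15.1% of the exonic bases of *Ctnnb1*, 28.3% of *Gsk3a*, 19.7% of *Dvl2*, 13.1% of *Rspo3*, 16.1% of *Sfrp2* and 17.8% of *Fzd5*, and the reads there cannot be assigned to either gene without strand.

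Several feedback targets of beta-catenin, genes commonly read as a sign of pathway activity, are described here by their values. *Axin2* stood at 29.5, 28.9 and 26.2 CPM in WT-Veh, 31.2, 28.7 and 28.6 CPM in WT-Nut3, 29.5, 24.9 and 27.6 CPM in KO-Veh and 40.4, 29.3 and 26.1 CPM in KO-Nut3. Its log2 fold change between KO-Nut3 and KO-Veh was 0.22 (SE 0.151), and KO-Nut3 RH6 alone was outside the range of the other groups. *Nkd1*, an inhibitor induced by the pathway, averaged 12.3 ± 2.03 CPM in KO-Veh against 13.9 ± 3.14 CPM in KO-Nut3 (SD, n = 3), a log2 fold change of 0.18 (0.182). *Lef1*, a DNA-binding partner of beta-catenin, had 11.6 CPM in KO-Nut3 RH6 and 2.39 to 4.31 CPM in the other 11 libraries, which gave a log2 fold change of 0.92 (0.454). Without KO-Nut3 RH6 the values were 0.02 for *Axin2*, 0.00 for *Nkd1* and 0.05 for *Lef1*, and *Axin2* reached 0.35 and *Nkd1* 0.33 without KO-Nut3 RH13. Leaving out KO-Veh RH10 gave 0.06 for *Nkd1*, and leaving out KO-Veh RH16 gave 0.29. *Sp5*, a repressor among the targets, had 40 counts in KO-Nut3 RH6 and at most 9 in any other library.

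*Rnf43*, which removes Frizzled receptors from the membrane, was higher in all KO-Nut3 libraries, with 4.76 ± 1.0 CPM against 3.30 ± 0.205 CPM in KO-Veh and a log2 fold change of 0.53 (SE 0.204, edgeR adjusted *P*-value 0.576). *Znrf3*, its relative with the same function, had a log2 fold change of -0.15 (0.108). *Notum*, which inactivates Wnt ligands, had 0.70 (0.419), and *Apcdd1*, a membrane inhibitor, 0.19 (0.0938), both with overlapping groups. These became 0.36 for *Notum* without KO-Veh RH10, 0.11 for *Apcdd1* without KO-Nut3 RH8, and -0.25 and -0.08 for *Znrf3* without KO-Nut3 RH8 and RH13. *Tcf7l1*, a TCF factor that acts mostly as a repressor, stood at 3.40, 4.36 and 2.57 CPM in WT-Veh, 3.45, 3.58 and 2.75 CPM in WT-Nut3, 3.20, 2.76 and 2.11 CPM in KO-Veh and 3.55, 3.55 and 3.29 CPM in KO-Nut3. KO-Nut3 lay just above KO-Veh and inside the range of WT-Veh, with a log2 fold change of 0.36 (SE 0.215, edgeR adjusted *P*-value 0.745) that was 0.21 without KO-Veh RH16. None of these targets passed the threshold in any comparison.

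The targets *Ccnd1* (cyclin D1, which drives entry into the cell cycle) and *Myc*, a growth-promoting transcription factor, were added after their values were seen. *Ccnd1* stood at 34.8, 31.2 and 42.7 CPM in WT-Veh, 29.3, 29.7 and 34.4 CPM in WT-Nut3, 27.3, 25.8 and 36.1 CPM in KO-Veh and 19.6, 24.2 and 28.2 CPM in KO-Nut3. All KO-Nut3 libraries lay below all WT libraries and overlapped with KO-Veh, and KO-Nut3 RH6 was the lowest. Its log2 fold change was -0.59 against WT-Veh (SE 0.149, edgeR adjusted *P*-value 0.254, DESeq2 adjusted *P*-value 0.0235) and -0.31 against KO-Veh (SE 0.156, edgeR adjusted *P*-value 0.696). The second was -0.18 without KO-Nut3 RH6 and -0.15 without KO-Veh RH16, and the first passed the threshold when all genes with at least 1 count were tested (adjusted *P*-value 0.00906). *Myc* had a log2 fold change of 0.15 against KO-Veh (SE 0.162), with overlapping groups.

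**Figure D5:**
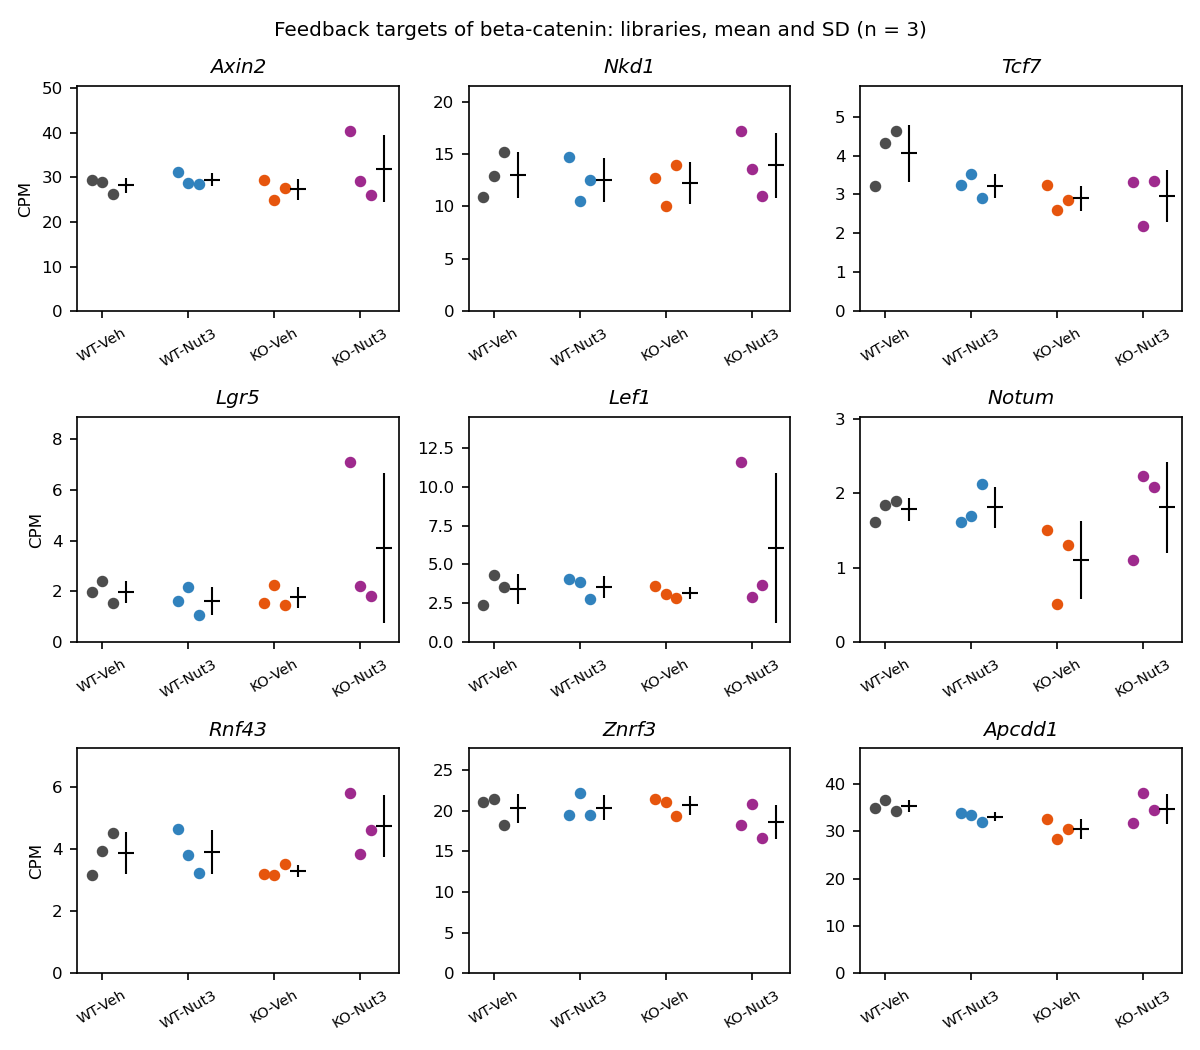
CPM of 9 feedback targets of beta-catenin in the 4 groups, with 1 point per library and the mean and SD (n = 3) beside it, on axes that start at 0. The groups overlap for most genes, and KO-Nut3 RH6 is the high point of *Axin2*, *Nkd1*, *Lgr5*, *Lef1* and *Rnf43*.

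In the comparison of KO-Veh with WT-Veh, which shows the loss of *Fmr1* without drug, 0 of the 48 members passed the threshold in edgeR (0.0177% of all genes did) and 0 in DESeq2 (0.0975% did). At an unadjusted *P*-value under 0.05 there were 4 members (8.33%), all lower in KO-Veh, against 7.20% of all genes. Groups did not overlap in 0 members that were higher, against 5.90% of all genes, and in 5 that were lower (10.4%, against 6.46%), namely *Wnt4*, *Wnt9a*, *Fzd6*, *Ror2* and *Ctnnb1*. The fitted log2 fold change was negative for 34 of 48 members and for 9 of 10 ligands, with a median of -0.09 over members and of -0.26 over ligands, against 0.00 over all genes.

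*Wnt4*, a ligand of the non-canonical branch, stood at 16.6, 20.4 and 15.8 CPM in WT-Veh and at 15.7, 17.1 and 12.8 CPM in WT-Nut3. It stood at 14, 14.8 and 10 CPM in KO-Veh and at 10.3, 20.1 and 11.4 CPM in KO-Nut3. KO-Veh lay below WT-Veh, with a log2 fold change of -0.44 (SE 0.147, edgeR adjusted *P*-value 0.610) that was -0.28 without KO-Veh RH16, while KO-Nut3 spanned both. *Tcf7*, a TCF factor and target, stood at 3.22, 4.31 and 4.63 CPM in WT-Veh, 3.24, 3.53 and 2.91 CPM in WT-Nut3, 3.25, 2.59 and 2.85 CPM in KO-Veh and 3.33, 2.18 and 3.35 CPM in KO-Nut3. Its log2 fold change was -0.49 (SE 0.207, edgeR adjusted *P*-value 0.674), and *Sfrp1* had -0.63 (0.246, 0.644) and *Wnt6* -2.05 (0.766, 0.631), all with overlapping groups. That of *Wnt6* was -0.91 without WT-Veh RH5. *Fzd6* differed by -0.27 (0.135), *Rspo2* by -0.15 (0.0948) and *Gsk3a* by -0.11 (0.0636), and these were -0.16 for *Fzd6* without WT-Veh RH5, and -0.05 and -0.07 for *Gsk3a* without WT-Veh RH2 and KO-Veh RH16. Of the marker lists, 1 of 10 genes of CA pyramidal neurons passed in this comparison, *Wfs1*, which fell (log2 fold change -0.44, edgeR adjusted *P*-value 0.0478), and 0 of any other list. The fibroblast list had 9 of 10 genes with a negative log2 fold change, and WT-Veh RH5 had the highest sum of that list in WT-Veh.

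In wild-type mice, WT-Nut3 against WT-Veh, 0 of the 48 members and 0% of all genes passed the threshold in edgeR, and likewise 0 and 0% in DESeq2. At an unadjusted *P*-value under 0.05 there were 2 members (4.17%), *Ror2* and *Wnt6*, against 3.17% of all genes. Groups did not overlap in 0 members that were higher (3.60% of all genes) and in 3 that were lower (6.25%, against 3.92%), namely *Wnt7a*, *Ror2* and *Ctnnb1*. *Ror2* stood at 1.61, 1.16 and 1.54 CPM in WT-Veh, 1.06, 0.447 and 0.505 CPM in WT-Nut3, 1.03, 1.13 and 0.285 CPM in KO-Veh and 1.44, 1.83 and 1.10 CPM in KO-Nut3. It was lower in both WT-Nut3 and KO-Veh than in WT-Veh, with log2 fold changes of -1.08 (SE 0.377, edgeR adjusted *P*-value 0.998) and -0.80 (0.413, 0.740), on 5 to 32 counts per library. Between KO-Nut3 and KO-Veh its log2 fold change was 0.82 (0.453, 0.733), with overlapping groups. Without KO-Veh RH16, which had 5 counts, the values against KO-Veh and of KO-Veh against WT-Veh were 0.43 and -0.40. *Wnt6* had a log2 fold change of -1.98 (0.880) in wild-type mice, which was -0.85 without WT-Veh RH5 and -3.24 without WT-Nut3 RH9.

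The log2 fold changes of the genes that were high with *Ttr* rested on WT-Nut3 RH9 in wild-type mice. That of *Sfrp1* was 0.79 (SE 0.486) with this library and -0.25 without it. That of *Sfrp5* was 1.70 (0.818) and -0.01, and that of *Fzd4* was 0.40 (0.277) and -0.09, and also 0.24 without WT-Veh RH2 and 0.62 without WT-Nut3 RH1. No call was involved, since each had an adjusted *P*-value of 0.998 in edgeR. WT-Nut3 RH1 and RH14, with *Ttr* at 12.9 and 18.2 CPM, lay within or close to the range of WT-Veh in all 3 genes, so WT-Nut3 RH9 was the 1 library of its group with high levels.

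Between KO-Nut3 and WT-Veh, which share their groups with the comparisons above, 0 members passed the threshold (0.00443% of all genes, 1 gene, did), and 2 passed in DESeq2, *Fzd4* and *Sfrp1*, against 1.11% of all genes there. At an unadjusted *P*-value under 0.05 there were 9 members (18.8%), 6 higher and 3 lower, against 9.17% of all genes. *Fzd4* had a log2 fold change of 0.88 (SE 0.153, edgeR adjusted *P*-value 0.131), *Sfrp1* of 1.38 (0.298, 0.185) and *Sfrp5* of 3.59 (0.927, 0.262). Of the choroid plexus list, 10 of 10 were higher in every KO-Nut3 library than in any WT-Veh library, against 1789 of all 22592 genes. Of this list 10 passed in DESeq2 and 0 in edgeR, with a median log2 fold change of 5.69. Treatment, genotype and choroid plexus transcripts therefore cannot be told apart here. Of the CA pyramidal list, 6 of 10 had an unadjusted *P*-value under 0.05, all lower in KO-Nut3, with a median of -0.32 over the list. Between KO-Nut3 and WT-Nut3 0 members passed (0.00443% of all genes did), and 7 members (14.6%) had an unadjusted *P*-value under 0.05, against 4.87% of all genes. *Wnt6*, with 2.72 (SE 0.974), and *Ror2*, with 1.10 (0.406), were among them, both at an adjusted *P*-value of 0.927 in edgeR, and that of *Wnt6* was 1.23 without KO-Nut3 RH8. Of the fibroblast list, 9 of 10 had an unadjusted *P*-value under 0.05 there, all higher in KO-Nut3, with a median of 1.39.

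The interaction of genotype and treatment asks whether the knockout and the wild type differed in their response to Nutlin-3. No member passed the threshold, as did 0% of all genes in edgeR, and 4 members (8.33%) had an unadjusted *P*-value under 0.05, against 4.17% of all genes. These were *Wnt6* with a log2 difference of 4.78 (SE 1.45), *Ror2* with 1.91 (0.617), *Fzd1* with 0.68 (0.313) and *Fzd6* with 0.45 (0.170), each at an adjusted *P*-value of 0.994. That of *Fzd1* was 0.26 without KO-Nut3 RH6, and that of *Wnt6* lay between 3.28 and 6.03 when each library was left out. Of the fibroblast list, 9 of 10 had an unadjusted *P*-value under 0.05 in the interaction, all positive, with a median of 2.24 over the list, and of the endothelium list 4 of 10, all positive, with a median of 0.31 over the list. Their part in the values of the members was not tested. The interaction of *Sfrp1*, *Fzd4* and *Fzd7* did not reach an unadjusted *P*-value under 0.05.

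The pathway holds further genes, of which 73 were listed and 69 tested (*Wnt8a*, *Rspo4*, *Dkk1* and *Dkk4* had at most 20 counts in total). Between KO-Nut3 and KO-Veh 0 of 69 passed the threshold in either direction in edgeR, against 0.199% of all genes, and 13 (18.8%, against 7.60%) had an unadjusted *P*-value under 0.05, 11 higher and 2 lower. In DESeq2, in which 1.35% of all genes with an adjusted *P*-value passed, 3 of them did, *Sostdc1*, *Wls* and *Nxn*, and so did 5 of the 48 members, *Sfrp1*, *Sfrp5*, *Fzd4*, *Fzd7* and *Wnt6*, all higher. *Sostdc1*, a secreted inhibitor of Wnt and BMP signaling, stood at 1.67, 1.89 and 2.16 CPM in WT-Veh and at 1.67, 23.6 and 2.35 CPM in WT-Nut3. In the knockout it stood at 1.44, 1.41 and 3.13 CPM in KO-Veh and at 22.7, 6.30 and 34.6 CPM in KO-Nut3, the same 4 libraries being high as for *Ttr* and *Sfrp1*. Its log2 fold change was 3.41 (SE 0.570, edgeR adjusted *P*-value 0.0563).

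*Wls*, the carrier that brings Wnt ligands to the cell surface, averaged 27.4 ± 4.23 CPM in KO-Veh against 41.5 ± 5.64 CPM in KO-Nut3 (SD, n = 3). Its log2 fold change was 0.59 (SE 0.129, edgeR adjusted *P*-value 0.148), and that of *Nxn*, a redox protein that binds Dishevelled, was 0.67 (0.170, 0.242). *Tcf7l2*, a TCF factor of thalamic neurons, and the ligand *Wnt3*, both named after their values were seen, had 32.7 and 7.54 CPM in KO-Nut3 RH6 and at most 7.33 and 3.30 CPM in any other library. The other comparisons gave 0 of 69 past the threshold each in edgeR. Between KO-Veh and WT-Veh the smallest unadjusted *P*-values belonged to *Reck*, a co-receptor for WNT7 in vessels, with a log2 fold change of -0.42 (SE 0.102, edgeR adjusted *P*-value 0.532), to *Frat1*, an inhibitor of GSK3, with -0.40 (0.138, 0.617) and -0.20 without WT-Veh RH2, and to *Bcl9*, a co-activator of beta-catenin, with -0.17 (0.0588, 0.628).

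In wild-type mice the smallest belonged to *Daam1*, a formin of the planar polarity branch, with a log2 fold change of 0.14 (SE 0.0513), to *Sostdc1*, with 2.27 (0.819), and to *Reck*, with -0.26 (0.110), all at an adjusted *P*-value of 0.998 in edgeR. Without 1 library these were 0.07 for *Sostdc1* (WT-Nut3 RH9) and -0.17 for *Reck* (WT-Nut3 RH14). Between KO-Nut3 and WT-Veh they belonged to *Sostdc1*, with 3.47 (0.541, adjusted *P*-value 0.125), *Dact3*, an antagonist of Dishevelled, with -0.29 (0.0583, 0.180), and *Nxn*, with 0.72 (0.157, 0.185). *Dact3* was also lower in KO-Nut3 than in WT-Nut3, with -0.27 (0.0626), next to *Wls*, with 0.46 (0.119), and *Bcl9*, with -0.23 (0.0597), each at an adjusted *P*-value of 0.927. In the interaction they belonged to *Reck*, *Wls* and *Apcdd1*, with log2 differences of 0.58 (0.157), 0.56 (0.193) and 0.28 (0.112), each at an adjusted *P*-value of 0.994.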

How the data were processed

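Poly(A) RNA-seq of hippocampus from 12 mice was used, with groups taken from the sample labels. The counts deposited by the authors are raw numbers of reads per gene, made with STAR (version not given in the sources used here) on mm10, without normalization, and the column of both strands was used since the column of 1 strand held 50.1% to 50.4% of the reads. A count table of the whole series was not used. Labels and methods differ on the read layout (single against paired) and on the instrument. Symbols, positions and exon lengths came from GENCODE M21 (GRCm38, the same assembly as mm10), in which all listed symbols were matched. Reads on more than 1 gene (4.95% to 5.32%) had been left out by the counter.

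The 22592 of 55421 genes with more than 20 counts in total were tested in edgeR 4.0.16 (R 4.3.3, quasi-likelihood, two-sided) after TMM normalization, with the 6 libraries of a pair in each comparison and all 12 in the interaction. *P*-values were adjusted after Benjamini-Hochberg over all genes tested, with 0.05 as the threshold, and the standard error is the size of the log2 fold change divided by the square root of *F*. Both set a difference against the spread between animals, 3 per group, with a dispersion moderated over all genes tested. A level of 3 counts was 0.149 to 0.179 CPM, and such limits cover counting error only. No 2 libraries of a group agreed within sampling noise. Named were members past the threshold, in each role the member with the highest level per length and the smallest *P*-value in the first 2 comparisons, members without overlap, 10 feedback targets, and the other pathway genes with the 3 smallest *P*-values. The members and lists were chosen with earlier results of these data known. Promoter windows came from RefSeq (GRCm38.p6). Alternatives were DESeq2 1.42.0, limma-voom (limma 3.58.1), size factors of DESeq2 in edgeR, filtering by filterByExpr, no filter beyond 1 count per gene, 1 fit of the 12 libraries, robust dispersion, a term for low (to RH8) or high animal numbers, present in all groups, and leaving out each library. The tests were tried on simulated data.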

Additional observations from a re-analysis of the deposited data

Results flagged for a closer look

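The co-receptor *Reck* had log2 fold changes of opposite sign for Nutlin-3 in the 2 genotypes, without overlap in either. It stood at 20.4, 19.2 and 19.4 CPM in WT-Veh, 17.4, 17.6 and 14 CPM in WT-Nut3, 13.7, 14.2 and 16 CPM in KO-Veh and 17.8, 16.8 and 20.2 CPM in KO-Nut3. All WT-Nut3 libraries lay below WT-Veh and all KO-Nut3 libraries above KO-Veh. Taken singly, the first held for 3.92% of all genes and the second for 7.85%. The share of all genes that met both was not computed. *Reck* was picked for this pattern from the 48 members and the 69 other pathway genes tested, and the interaction below rests on the same values. The interaction was 0.58 on the log2 scale (standard error 0.157, unadjusted *P*-value 0.00226), but at an adjusted *P*-value of 0.994 in edgeR it did not pass over all genes. The summed fibroblast markers were 77.1, 201 and 99.9 CPM in WT-Veh, 89.3, 123 and 57.4 CPM in WT-Nut3, 95, 98.8 and 102 CPM in KO-Veh and 144, 261 and 127 CPM in KO-Nut3. Of their 10 genes, 10 had a negative log2 fold change in wild-type mice (median -0.60) and 9 an unadjusted *P*-value under 0.05 in the interaction (median 2.24, against 4.17% of all genes). Of the endothelium list, 9 of 10 genes had a positive interaction and 4 an unadjusted *P*-value under 0.05. The part of these cells in the values of *Reck* was not tested. Groups of 3 libraries were too small for a search for outlying samples.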

How the results depend on the processing

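The call of *Sfrp1* between KO-Nut3 and KO-Veh depended on the processing. The 1 of 48 members past the threshold became 5 in DESeq2 (1.35% of all genes passed) and 5 when all genes with at least 1 count were tested (1.51%). It became 0 with limma-voom (0.0841%), with filterByExpr (0.201%), with all 12 libraries in one fit (0%) and with a term for animal number (0.0885%). With robust dispersion (0.199% of all genes) the 1 member was *Fzd4*, and *Sfrp1* had an adjusted *P*-value of 0.061. Leaving out each library gave 0 to 3 members, with 3 (*Fzd4*, *Sfrp1* and *Sfrp5*) without KO-Nut3 RH8. Without that library 1.18% of all genes passed, against 0.0266% to 0.288% without any other. The log2 fold change of *Sfrp1* stayed between 1.84 and 2.28. Testing all genes with at least 1 count gave 1 member between KO-Veh and WT-Veh, 3 in wild-type mice, 3 between KO-Nut3 and WT-Veh and 3 in the interaction, where the threshold had passed 0 of 48. In that setting 0.757%, 0.693%, 1.16% and 0.810% of all 35930 genes passed in these comparisons. Between KO-Nut3 and WT-Veh DESeq2 gave 2 (1.11% of all genes passed), and leaving out each library 0 to 3, with 3 without KO-Nut3 RH8. Without KO-Nut3 RH8 0.872% of all genes passed in this comparison, against 0.00443% to 0.0221% without any other library. Of the other pathway genes, 0 in edgeR, DESeq2 gave 3 between KO-Nut3 and KO-Veh and 5 between KO-Nut3 and WT-Veh. Testing all genes with at least 1 count gave 4 and 6 there, 1 in wild-type mice and 3 in the interaction, and leaving out each library gave 0 to 1 in both of the former comparisons. In wild-type mice the log2 fold change turned without WT-Nut3 RH9 for *Sfrp1* (-0.25, with 1.14 as the highest value without 1 library), *Sfrp5* (-0.01, with 2.32) and *Fzd4* (-0.09, with 0.62). The causes were not tested. Over 68 log2 fold changes and 982 settings, 927 kept direction and side of the threshold, 9 lost the threshold, 43 gained it and 3 turned. Only *Sfrp1* between KO-Nut3 and KO-Veh and *Fmr1* between KO-Veh and WT-Veh had passed the threshold at the start. Most of the 927 were thus values that did not pass and stayed so, whatever their size. All 9 losses were those of *Sfrp1*, which kept its call in 5 of 14 settings. No paired analysis was possible because the animal numbers are not shared between groups. *Sfrp5* and *Wnt6* had as few as 1 count in a library and *Ror2* 5, which limits the precision of their values.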
